A study of Mus musculus with 12 samples.

Results

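The 9 mouse prostanoid receptor genes (Ptger1, Ptger2, Ptger3, Ptger4, Ptgfr, Ptgir, Ptgdr, Ptgdr2 and Tbxa2r) and the prostaglandin transporter gene Slco2a1 were examined for 3 histone marks in intestinal organoids given arachidonic acid (AA). These 10 genes, of 21627 protein-coding genes in the annotation, were named by family membership, and every peak overlapping their mm10 RefSeq span extended by 1 kb on each side was taken. Organoids are epithelial structures grown in Matrigel from mouse crypts. Here their medium held EGF, Noggin, R-spondin, CHIR-99021 and Y-27632. The AA group received 25 µM AA for 6 days, and the vehicle group received vehicle for the same time. H3K4me3, H3K27ac and H3K27me3 were each profiled by CUT&RUN, which releases the DNA around a mark with an antibody-tethered nuclease, in 2 AA libraries and 2 vehicle libraries per mark, 12 in all. Nothing in the labels states that the pair of libraries in a group are separate cultures or mice, so the p-values measure only how much these libraries vary, which may be technical. The series' design text names organoids with a Ptger knockout and an arm given a PGE2 analogue, whereas the labels of these libraries name neither a genotype nor that arm. The genotype is therefore not known here.

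Prostanoids are short-lived lipids that cyclooxygenases and terminal synthases make from AA, and they act through G-protein-coupled receptors. The 4 receptors for prostaglandin E2 are EP1 (Ptger1), which signals through calcium, EP2 (Ptger2) and EP4 (Ptger4), which raise cyclic AMP, and EP3 (Ptger3), which mainly lowers it. FP (Ptgfr) binds prostaglandin F2 alpha, IP (Ptgir) prostacyclin, DP1 (Ptgdr) and CRTH2 (Ptgdr2) prostaglandin D2, and TP (Tbxa2r) thromboxane. SLCO2A1 carries prostaglandins into cells, where they are broken down. In the intestine, prostaglandin E2 signalling through EP4 is known for its part in epithelial growth and repair. H3K4me3 marks active or poised transcription starts, H3K27ac marks active promoters and enhancers, and H3K27me3 is the Polycomb mark of silenced genes.

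In the main test, H3K4me3 was called lower with AA at the starts of Ptger2 and Ptgdr, and H3K27me3 higher over 2 regions in the body of Slco2a1. None of these calls held after quantile normalization or without limma's trend and robust estimation, and neither H3K4me3 call held in the other deposited peak set. Ptger4 carried the strongest H3K4me3 of the 10 genes, in a peak that was not called in the main test. In the other deposited peak set 1 of its 3 H3K4me3 peaks was called higher, and the one over the start was not. No H3K27ac peak at any of the 10 genes passed the test. Values are the deposited peak scores, which behave as a scaled mean read coverage per base of the peak. Changes are the AA minus the vehicle mean of log2(score + a small pseudocount), with the standard error (SE) and adjusted p of limma fitted over every peak of the mark. A peak was called at an adjusted p below 0.05.

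The SEACR peak set had 13 H3K4me3 peaks at 7 of the 10 genes, 9 H3K27ac peaks at 3 and 35 H3K27me3 peaks at 8. For H3K4me3, 0 of the 13 were called higher with AA and 2 lower, where 1.54% of all 58548 peaks were called higher and 1.38% lower, 2.92% in all. These shares depended on the mean score: in the deciles that held the called peaks of Ptger2 and Ptgdr, 1.49% and 3.79% were called lower. The AA libraries lay wholly above the vehicle libraries at 2 of the 13 and wholly below them at 5, against 18.3% and 30.5% of all peaks. For H3K27ac, 0 of the 9 were called in limma, where 0.155% of all 62547 peaks were called higher and 0.0448% lower, 0.2% in all, and 0 of the 9 had an unadjusted p below 0.05. The AA libraries lay above the vehicle libraries at 1 of the 9 and below at 0, against 28.5% and 10.7% of all peaks. For H3K27me3, 2 of the 35 were called higher and 0 lower, where 0.498% of all 105301 peaks were called higher and 0.0475% lower, 0.545% in all. In the decile of highest mean score, 4.48% were called higher and 0.427% lower. That decile held 7 of the 35 peaks, both called ones among them. The AA libraries lay above the vehicle libraries at 12 of the 35 and below at 1, against 26.3% and 13.4% of all peaks. In the smaller MACS2 set, 0 of 2 H3K27ac peaks and 0 of 2 H3K27me3 peaks at the genes were called, none of them with an unadjusted p below 0.05, where 0% of all H3K27ac peaks were called and 0.0547% of all H3K27me3 peaks were called higher and 0.492% lower. Both SEACR H3K27me3 calls and 10 of these 12 peaks belonged to Slco2a1. The median change of the peaks at the 10 genes was -0.26, -0.1 and 0.3 for H3K4me3, H3K27ac and H3K27me3, and that of all peaks -0.19, 0.11 and 0.12 in the same order.

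**Figure D1:**
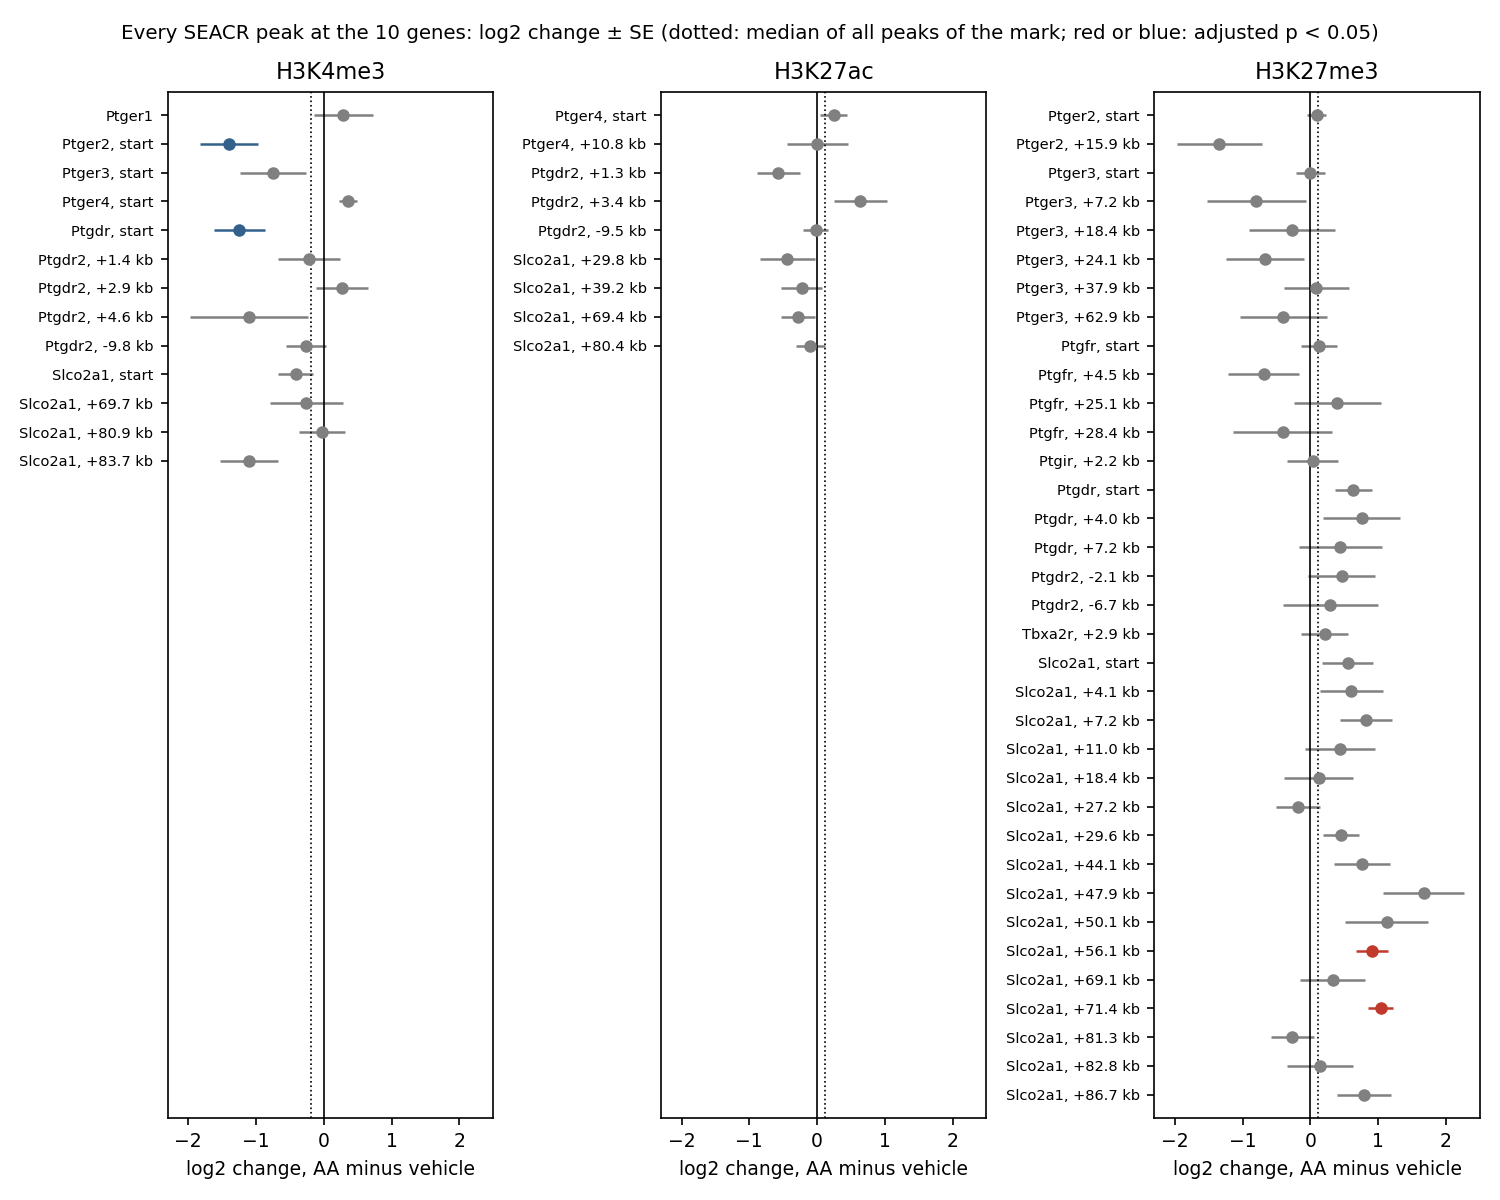
Each point is the log2 change (AA minus vehicle, x axis) of 1 SEACR peak at a prostanoid receptor or transporter gene (y axis), with bars of 1 SE. Panels show H3K4me3 (13 peaks), H3K27ac (9) and H3K27me3 (35), and the dotted line is the median of all peaks of the mark. Coloured points were called by limma: 1 peak each of Ptger2 and Ptgdr lie left of 0 for H3K4me3, and 2 of Slco2a1 lie right of 0 for H3K27me3.

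The depth of the libraries was uneven in H3K4me3. Rebuilt from the smallest step of the scores, the median peak had 1.37 and 1.46 reads per base in the AA libraries, against 3.38 and 2.35 in the vehicle libraries. The matching values were 2.28 and 2.76 against 1.95 and 2.45 for H3K27ac, and 1.19 and 1.6 against 1.85 and 1.29 for H3K27me3. The H3K4me3 changes also depended on the strength of the peak. In the decile of mean score that held Ptger2 the median change was -0.27, in that of Ptgdr -0.26 and in that of Ptger4 0.28. The organoids carried epithelial marks: 11 of 16 intestinal epithelial marker genes had an H3K4me3 peak at their start, with summed scores of 8.14 and 7.08 with AA and 6.75 and 6.48 with vehicle. No start peak was found for Cdh1, Cdx1, Lgr5, Chga and Dclk1, where a gene without an annotated start counts as having none. Strong H3K4me3 peaks overlapped some of them, with scores of 1.15 and 0.927 with AA and 0.992 and 0.897 with vehicle at Cdx1. At Lgr5 they were 0.921 and 0.759 against 0.924 and 0.923, and at Cdh1 0.806 and 0.671 against 0.695 and 0.651. Start peaks were found at 1 of 10 fibroblast and muscle markers, 2 of 5 endothelial, 1 of 6 blood cell and 1 of 4 neural and glial markers. The highest summed score of the start peaks among these lists was 0.441, from 1 gene, so it cannot be set against the epithelial sums over 11 genes. Per gene with a start peak, the mean score was 0.646 for the epithelial markers and 0.155 to 0.33 for the other lists. Peaks away from a counted start could be stronger: that of Col1a1, a fibroblast marker, scored 0.606 and 0.456 with AA and 0.485 and 0.633 with vehicle.

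The state at the transcription start divided the genes. Ptger4 had H3K4me3 and H3K27ac peaks over its start and no H3K27me3 peak. Ptger2, Ptger3, Ptgdr and Slco2a1 had both H3K4me3 and H3K27me3 peaks there, in libraries made from many cells, in which 1 population carrying both marks and a mixture of populations cannot be told apart. Ptgfr had only H3K27me3 at its start. Ptgir, Ptgdr2 and Tbxa2r had no SEACR peak of any mark within 1 kb of a start in the promoter table used here, which holds no entry for Ptger1.

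The 250 bases before the start of the 4 genes on which the results turn are shown as context for the peaks over those starts. They are RefSeq sequences of build GRCm38.p6 (mm10), written on the gene's strand, and capitals mark matches on either strand to the GC box GGGCGG or the TATA box TATAAA.
Ptger2: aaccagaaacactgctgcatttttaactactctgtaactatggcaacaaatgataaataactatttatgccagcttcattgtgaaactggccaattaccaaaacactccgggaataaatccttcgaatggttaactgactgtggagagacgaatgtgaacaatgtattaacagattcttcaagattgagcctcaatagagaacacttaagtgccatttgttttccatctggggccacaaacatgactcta
Ptgdr: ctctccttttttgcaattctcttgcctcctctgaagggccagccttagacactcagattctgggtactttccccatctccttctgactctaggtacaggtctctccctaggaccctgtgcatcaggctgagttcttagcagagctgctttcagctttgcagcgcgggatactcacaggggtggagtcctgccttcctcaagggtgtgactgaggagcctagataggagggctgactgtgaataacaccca
Ptger4: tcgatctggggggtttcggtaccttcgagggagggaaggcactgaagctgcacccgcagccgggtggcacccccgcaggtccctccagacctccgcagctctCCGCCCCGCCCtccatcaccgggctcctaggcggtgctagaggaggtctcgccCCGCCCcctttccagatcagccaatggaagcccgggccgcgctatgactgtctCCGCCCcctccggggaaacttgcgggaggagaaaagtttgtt
Slco2a1: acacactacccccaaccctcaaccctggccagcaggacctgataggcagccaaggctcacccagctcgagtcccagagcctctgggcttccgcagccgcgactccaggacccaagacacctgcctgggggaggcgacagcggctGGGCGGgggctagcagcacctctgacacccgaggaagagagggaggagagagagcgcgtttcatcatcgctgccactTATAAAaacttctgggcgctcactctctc
The Ptger2 window (chr14:44987861-44988110, plus strand) has 3 CpG dinucleotides and 38% G and C, and the Ptgdr window (chr14:44859376-44859625, minus strand) has 2 CpG and 53.2%. The Ptger4 window (chr15:5244188-5244437, minus strand) has 19 CpG and 66.8% G and C, with 4 GC boxes, and the Slco2a1 window (chr9:103008237-103008486, plus strand) has 12 CpG and 63.2%, with 1 GC box and a TATA box that begins 29 bases before the start. Over 32851 RefSeq promoter windows the median was 6 CpG and 52.4% G and C. GC boxes were in 32.7% of the windows and TATA boxes in 12.4%. The cyclic AMP response element TGACGTCA, found in 1.55% of windows, its shorter form TGACG (17.8%), which the full element contains, and the TEAD core CATTCC (12.6%) matched in none of these 4 windows. In the Ptger3 window there were 21 CpG and 3 GC boxes. Of the 5 H3K4me3 peaks over a start, the called ones were those of Ptger2 and Ptgdr, whose windows have the fewest CpG among the 5 genes. That of Ptger3, whose window has the most, was also lower in both AA libraries (change -0.75) but not called. A link between CpG and the change was not tested.

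Ptger2 (chr14:44988111-45003820) encodes the receptor EP2. Its H3K4me3 start peak (chr14:44987825-44990021, 2197 bp) scored 0.0813 and 0.0947 with AA, against 0.230 and 0.323 with vehicle. Both AA libraries lay below both vehicle libraries. The means were 0.0880 ± 0.00951 with AA and 0.276 ± 0.0659 with vehicle (SD, n = 2 each), a change of -1.40 ± 0.42 (limma adjusted p = 0.0391). The ratio of the means was 0.318, at percentile 1.45 of 16007 genes with an H3K4me3 peak, where the median ratio was 1.12. The coverage behind these scores was thin, at 0.746 and 0.933 reads per base with AA against 4.47 and 4.23 with vehicle. The call did not hold without vehicle replicate 1 (adjusted p = 0.839) or vehicle replicate 2 (adjusted p = 0.884), which left 36 and 32 calls over all peaks of the mark. In the MACS2 peak set the peak at this start gave 0.104 and 0.117 with AA and 0.409 and 0.508 with vehicle, a change of -1.18 ± 0.54 that was not called (limma adjusted p = 0.173).

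No H3K27me3 peak of Ptger2 was called. A peak of 12196 bp over the start (chr14:44984244-44996439) covered 53% of the gene and stood at percentile 98.8 of all H3K27me3 peaks. It scored 0.258 and 0.263 with AA, against 0.237 and 0.247 with vehicle, a change of 0.09 ± 0.14 (limma adjusted p = 0.871). Relative to the median of all peaks this change was -0.01. The second H3K27me3 peak of Ptger2, 15931 bp downstream, was weak, with 0.0679 and 0.0241 with AA against 0.126 and 0.199 with vehicle (adjusted p = 0.474).

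Ptgdr (chr14:44851235-44859375), the gene of the prostaglandin D2 receptor DP1, is near Ptger2 on the same chromosome and changed in the same direction. Its H3K4me3 start peak (chr14:44858396-44859790, 1395 bp) scored 0.156 and 0.0785 with AA, against 0.314 and 0.288 with vehicle, and the groups did not overlap. The change was -1.25 ± 0.38 (limma adjusted p = 0.0400), on a coverage of 1.44 and 0.773 reads per base with AA and 6.10 and 3.77 with vehicle. The ratio of the means was 0.391, at percentile 2.37 of the genes. This call too did not hold without vehicle replicate 1 (adjusted p = 0.839) or vehicle replicate 2 (adjusted p = 0.884), nor after centring each library on its median (adjusted p = 0.0572), where that of Ptger2 held (adjusted p = 0.0496). MACS2 gave 0.218 and 0.0884 with AA and 0.486 and 0.416 with vehicle, which was not called (adjusted p = 0.229).

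H3K27me3 at the Ptgdr start peak (chr14:44856577-44860921, 4345 bp) scored 0.243 and 0.183 with AA, against 0.130 and 0.119 with vehicle. The AA libraries were the higher ones and the groups did not overlap, but the change of 0.63 ± 0.27 was not called (limma adjusted p = 0.415). The mean over the 3 H3K27me3 peaks of Ptgdr, weighted by length, was 0.191 and 0.164 with AA and 0.109 and 0.0930 with vehicle, a ratio of 1.76. Of 10934 genes with an H3K27me3 peak, 1355 had a higher ratio. The lncRNA genes Gm34198 and Gm16976 overlap Ptgdr, so these peaks are not particular to the receptor gene.

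Library depth, and H3K4me3 at single markers of some but not all other cell types, differed between the groups in the same direction as Ptger2 and Ptgdr did. In H3K4me3 the AA libraries were the shallower ones, as given above. The 1 fibroblast and muscle marker with a start peak scored 0.271 and 0.191 with AA against 0.415 and 0.441 with vehicle, and the 1 neural and glial marker 0.0982 and 0.133 against 0.223 and 0.202. For the other 9 and 3 markers of those lists no start peak was found. The 5 fibroblast and muscle markers with any H3K4me3 peak had changes of -0.84 (Pdgfra) to -0.07 (Col1a1) at their strongest one, with a median of -0.34. Pdgfra, the one with a start peak, also had an H3K27me3 peak at percentile 99.7 of that mark. The 1 blood cell marker with a start peak scored 0.239 and 0.215 with AA against 0.297 and 0.307 with vehicle. The 2 endothelial markers with one summed to 0.328 and 0.322 with AA against 0.329 and 0.259 with vehicle, where the groups overlapped. By its strongest peak, no gene of these lists was called for H3K4me3 in limma. Over all H3K4me3 peaks, the AA libraries lay wholly below the vehicle libraries at 30.5%. The epithelial marker Olfm4 also scored lower with AA, at 0.300 and 0.284 against 0.449 and 0.4715, while the median change of the epithelial list was 0.13. The part of depth or of other cell types in the change at Ptger2 and Ptgdr was not tested.

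**Figure D2:**
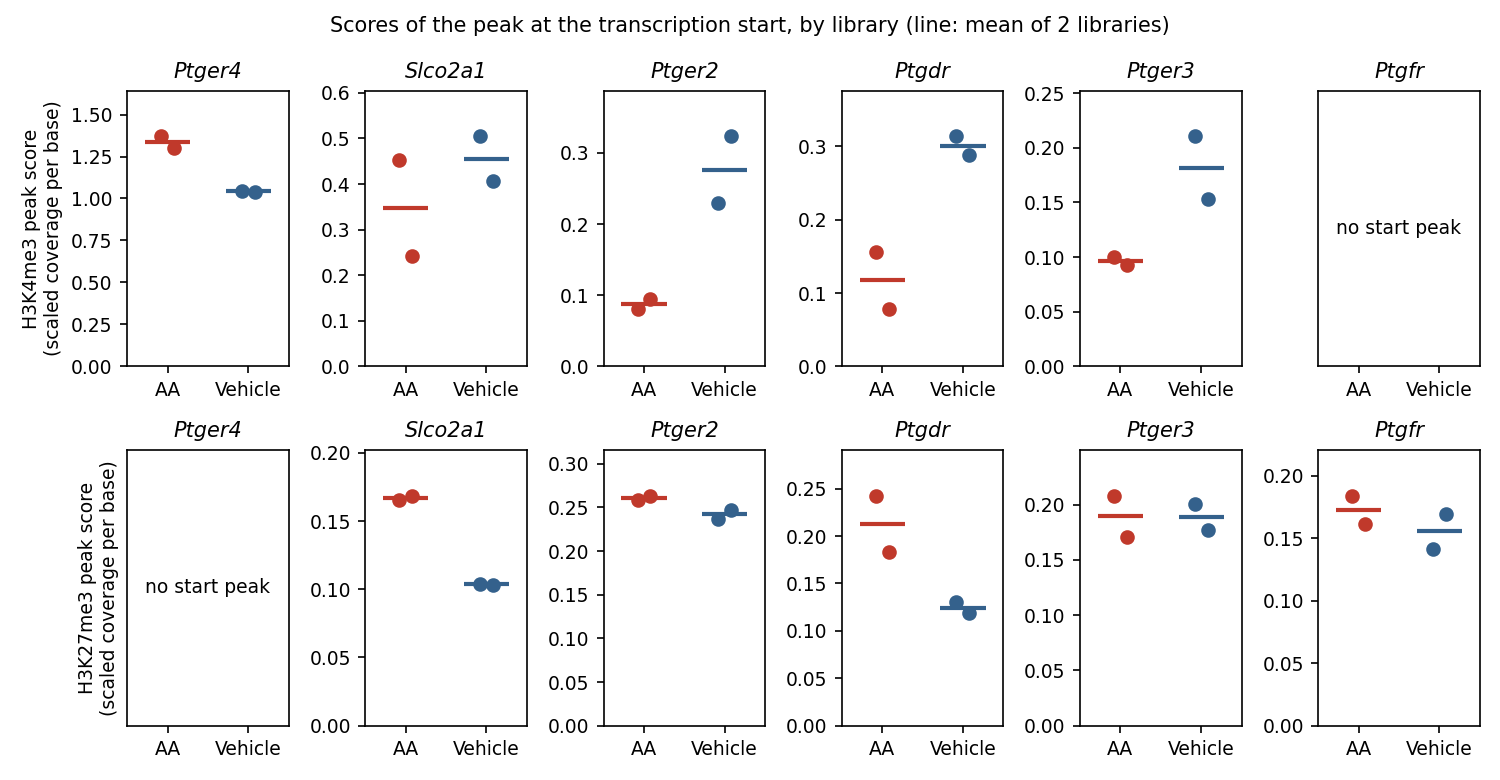
Deposited peak scores (y axis, scaled coverage per base, each panel from 0 on its own scale) of the H3K4me3 and H3K27me3 peaks over the transcription starts, with AA libraries left of vehicle libraries, 1 point per library and a line at the mean of 2. Both AA points lie below both vehicle points for H3K4me3 at Ptger2, Ptgdr and Ptger3, and above them at Ptger4.

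Ptger4 (chr15:5233399-5244187) encodes EP4, the other receptor that raises cyclic AMP. A single H3K4me3 peak of 9465 bp (chr15:5236254-5245718) covered 73.5% of the gene and stood at percentile 98.99 of all H3K4me3 peaks. It scored 1.37 and 1.30 with AA, against 1.04 and 1.04 with vehicle, and its groups did not overlap. The change of 0.35 ± 0.13 was not called (limma adjusted p = 0.126), on 12.6 and 12.8 reads per base with AA and 20.3 and 13.6 with vehicle. The ratio of the means, 1.28, was at percentile 81.3 of the genes.

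Smaller MACS2 peaks resolved this domain, and of the 10 H3K4me3 MACS2 peaks at the 10 genes 1 was called higher and 0 lower, where 5.22% of all MACS2 peaks were called higher and 1.09% lower. The called one (chr15:5242865-5243381), 806 bp downstream of the start of Ptger4, scored 2.81 and 2.94 with AA, against 1.53 and 1.67 with vehicle. Its change was 0.79 ± 0.15 (limma adjusted p = 0.0024). The MACS2 peak over the start itself scored 2.81 and 2.24 with AA and 2.03 and 1.77 with vehicle (change 0.37, adjusted p = 0.127), and the third one 2.56 and 2.53 against 2.04 and 1.78 (change 0.39, adjusted p = 0.101). All 3 were higher in both AA libraries than in both vehicle libraries, and the share of all MACS2 peaks with this order was not counted. The change of the SEACR peak was 0.32 without AA replicate 1, 0.39 without AA replicate 2 and 0.35 without either vehicle replicate. This peak passed after centring on the library median (0.56, limma adjusted p = 0.00125). There, 5557 of all 58548 peaks were called higher, against 904 in the main fit. After quantile normalization its change was 0.03 (adjusted p = 0.914).

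H3K27ac at the start of Ptger4 (chr15:5235288-5245520, 82.5% of the gene) scored 0.327 and 0.290 with AA and 0.218 and 0.283 with vehicle. The groups did not overlap, with a change of 0.24 ± 0.20 that was not called (adjusted p = 0.792), at percentile 83.6 of all H3K27ac peaks. Ptger4 was the only one of the 10 genes with an H3K27ac peak over its start. A second H3K27ac peak, 10796 bp downstream of that start, had a change of 0.00.

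Ptger3 (chr3:157566821-157644758), the gene of EP3, had a weak H3K4me3 peak over its start (1124 bp) with 0.1001 and 0.0931 with AA, against 0.210 and 0.153 with vehicle. The groups did not overlap, and the change of -0.75 ± 0.48 was not called (limma adjusted p = 0.448). H3K27me3 over the start (5841 bp, percentile 96.0) was 0.208 and 0.171 with AA and 0.201 and 0.177 with vehicle, a change of 0.00 ± 0.21 with overlapping groups. The other 5 H3K27me3 peaks of Ptger3 had log2 changes of -0.80 to 0.09, none called.

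Ptger1, the gene of EP1, had 1 H3K4me3 peak, which was not called, and no H3K27ac or H3K27me3 SEACR peak.

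The remaining receptor genes were marked by H3K27me3 or at a distance from the start in the promoter table. Ptgfr (chr3:151798610-151837528), the gene of FP, had an H3K27me3 start peak with 0.184 and 0.161 with AA and 0.142 and 0.170 with vehicle (change 0.13 ± 0.27, adjusted p = 0.916). Ptgir (chr7:16906490-16910905), the gene of IP, had 1 H3K27me3 peak, with 0.153 and 0.121 against 0.0946 and 0.179 (0.04 ± 0.38, adjusted p = 0.986). Both pairs of groups overlapped. Tbxa2r (chr10:81328268-81335174), the gene of TP, also had 1, with 0.173 and 0.135 with AA against 0.142 and 0.114 with vehicle (0.21 ± 0.35, adjusted p = 0.886), and overlapping groups.

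Ptgdr2 (chr19:10924519-10942511), the gene of CRTH2, shares its region with Ccdc86. Its strongest H3K4me3 peak (chr19:10925545-10927317) lay inside the RefSeq span of the gene, toward its 5' end. The start in the promoter table used here lies within that span, and the peak was 9843 bp upstream of it. The peak scored 0.306 and 0.230 with AA, against 0.305 and 0.342 with vehicle (change -0.26 ± 0.30, adjusted p = 0.680). The other 3 H3K4me3 peaks had log2 changes of -1.10 to 0.27. Its strongest H3K27ac peak lay over the same place and scored 0.310 and 0.284 with AA and 0.324 and 0.280 with vehicle, a change of -0.02 ± 0.18 (adjusted p = 0.984). H3K27me3 was low, with 0.0922 and 0.194 against 0.0955 and 0.0831 at the stronger of 2 peaks (adjusted p = 0.815). The groups overlapped in each of these 3 named peaks.

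Slco2a1 (chr9:103007061-103096002), the prostaglandin transporter, held 16 of the 35 H3K27me3 peaks, which together covered 55241 bp. The strongest (chr9:103079912-103088141, 8230 bp), 71425 bp downstream of the start, scored 0.316 and 0.308 with AA, against 0.125 and 0.146 with vehicle. The change was 1.04 ± 0.18 (limma adjusted p = 0.000394), on 3.35 and 4.02 reads per base with AA and 2.15 and 1.80 with vehicle. The longest (chr9:103064590-103076856, 12267 bp), 56103 bp downstream, scored 0.260 and 0.252 with AA, against 0.123 and 0.118 with vehicle, a change of 0.91 ± 0.23 (limma adjusted p = 0.0408). In both called regions the AA libraries differed from one another by far less than from the vehicle libraries. A limma call favours peaks of this kind, so this is no separate support for it.

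The other 14 H3K27me3 peaks of Slco2a1 were not called. The one over the start (chr9:103005544-103011142) scored 0.166 and 0.169 with AA and 0.104 and 0.103 with vehicle (0.55 ± 0.38, adjusted p = 0.690). The highest change, 1.67 ± 0.60, was at a peak of 759 bp that lay 47879 bp downstream, with 0.256 and 0.146 against 0.0899 and 0.00863 (adjusted p = 0.259). Of the 16 peaks 14 had a positive log2 change, and the AA libraries lay above the vehicle libraries at 10 and below at 0. The 16 peaks are neighbours in the same 4 libraries and are not independent of each other.

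The mean H3K27me3 over the 16 peaks, weighted by length, was 0.211 and 0.197 with AA, against 0.117 and 0.107 with vehicle. The means were 0.204 ± 0.00993 with AA and 0.112 ± 0.00751 with vehicle (SD, n = 2 each), a ratio of 1.82. A 2-sided exact permutation test of 2 against 2 libraries gave p = 0.333, the smallest value it can give. Among the 1071 genes with at least 10 H3K27me3 peaks, 13 had a higher ratio and the median ratio was 1.13. Among all 10934 genes with a peak, 1226 had a higher ratio, many of them with few peaks.

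Neither Slco2a1 call held when a library was left out. For the strongest peak the limma adjusted p was 0.354 without AA replicate 1, 0.22 without AA replicate 2, 0.214 without vehicle replicate 1 and 0.093 without vehicle replicate 2, and for the longest peak it was 0.353 to 0.597. Centring on the library median gave 0.0526 for the strongest peak and 0.329 for the longest, and quantile normalization 0.054 and 0.424. The change of the strongest peak stayed between 0.73 and 1.12 over all the alternatives run, and that of the longest between 0.62 and 0.99. The MACS2 set has no H3K27me3 peak over Slco2a1. Of the 11 epithelial marker genes with an H3K27me3 peak, 1 was called higher and 0 lower, where 2.53% of all genes with a peak were called higher and 0.265% lower by their strongest peak. At Lgr5, the gene of an R-spondin receptor of intestinal stem cells, H3K27me3 was 0.349 and 0.284 with AA against 0.127 and 0.125 with vehicle (1.13 ± 0.19, limma adjusted p = 0.000168), a call that held after centring (0.0374) but was lost whichever of the 4 libraries was left out (0.102 to 0.487).

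**Figure D3:**
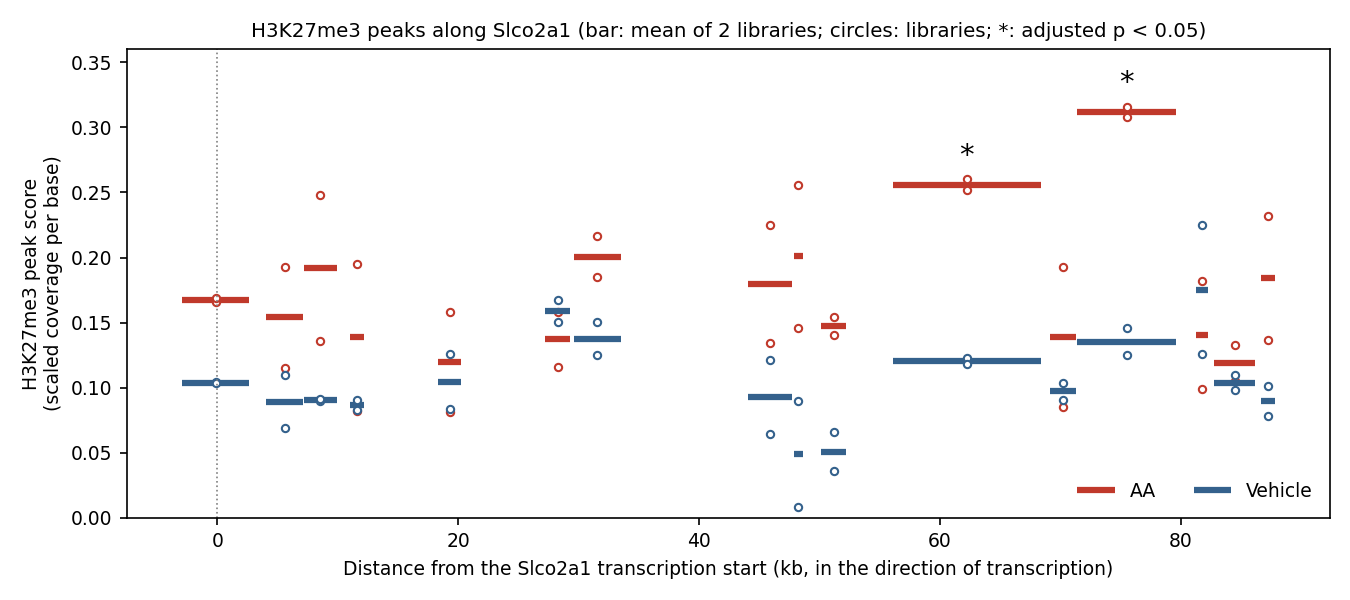
H3K27me3 score (y axis, scaled coverage per base) of the 16 SEACR peaks along Slco2a1 against distance from its transcription start in kb (x axis); bars are means of 2 libraries, circles single libraries, and stars the 2 peaks called by limma. The called peaks begin 56103 and 71425 bp downstream, and their AA circles lie well above the vehicle circles.

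No H3K4me3 or H3K27ac peak of Slco2a1 was called. H3K4me3 over the start (chr9:103007511-103009942) scored 0.454 and 0.243 with AA and 0.504 and 0.407 with vehicle, a change of -0.42 ± 0.25 with overlapping groups (limma adjusted p = 0.411). This value rested on 1 library: it was -0.84 (adjusted p = 0.000665) without AA replicate 1 and 0.00 without AA replicate 2. The 3 other H3K4me3 peaks had log2 changes of -0.26, -0.02 and -1.10, the last with an adjusted p of 0.144. The strongest of 4 H3K27ac peaks, 80443 bp downstream, scored 0.211 and 0.255 with AA and 0.213 and 0.299 with vehicle (-0.10 ± 0.22, adjusted p = 0.913). The 4 had log2 changes of -0.44 to -0.10, and the AA and vehicle libraries overlapped at each.

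The rest of the pathway was described by 4 lists, taking the strongest peak of each gene. In this reading, 5.36% of 16007 genes were called higher for H3K4me3 and 1.36% lower, 0.323% and 0.0359% for H3K27ac, and 2.53% and 0.265% for H3K27me3. For H3K4me3, 3 of 16 genes of prostanoid synthesis and breakdown with a peak were called higher and 0 lower, with a median change of 0.29 where that of all genes was 0.19. They were Ptgs2, the inducible cyclooxygenase (change 1.54), Ptges2, a prostaglandin E synthase (0.45), and Zadh2, a prostaglandin reductase. Zadh2 scored 1.61 and 1.46 with AA, against 1.10 and 1.12 with vehicle (0.46 ± 0.13, limma adjusted p = 0.0176). Of the 8 G protein genes, 1 was called higher and 0 lower, with a median of 0.24. It was Gnai2, an inhibitory alpha subunit of the kind EP3 couples to, with 1.52 and 1.47 with AA against 1.09 and 1.00 with vehicle (limma adjusted p = 0.00933). The peaks of Ptges2, Zadh2 and Gnai2 stood at percentiles 99.3, 99.6 and 99.4 of mean score. In that decile 10.4% of all H3K4me3 peaks were called higher, with a median change of 0.28. The Ptgs2 peak stood at percentile 59.1, in a decile where 0.73% were called higher and the median change was -0.27.

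Of 20 genes of cyclic AMP signalling, 2 were called higher for H3K4me3 and 0 lower, with a median of 0.09. Adcy8, an adenylyl cyclase, scored 1.51 and 1.40 with AA, against 0.492 and 0.466 with vehicle (1.56 ± 0.16, limma adjusted p = 3.88e-18). Prkaca, a catalytic subunit of protein kinase A, scored 1.02 and 0.832 against 0.541 and 0.610 (0.66 ± 0.18, limma adjusted p = 0.0146). Of these 6 called genes Adcy8 alone stayed past the threshold with each library left out, at a highest adjusted p of 5.17e-05. The others did not pass without vehicle replicate 1 (adjusted p of 0.686 for Ptgs2 and 0.839 for the rest) or vehicle replicate 2 (0.884 for each), and Ptgs2 also not without AA replicate 1 (0.0979). After quantile normalization the changes of Ptges2 (0.12), Zadh2 (0.12) and Gnai2 (0.18) were not called.

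Of the 9 genes for calcium effectors and arrestins 0 were called for H3K4me3 in limma, with a median of 0.04 and 3 at an unadjusted p below 0.05. For H3K27ac and H3K27me3, 0 genes of these 4 lists were called in limma in either direction. For synthesis and breakdown, G proteins, cyclic AMP and calcium effectors in that order, unadjusted p-values below 0.05 were found at 0, 1, 1 and 2 genes for H3K27ac and at 1, 2, 4 and 1 for H3K27me3. Their H3K27me3 medians were -0.13 for synthesis and breakdown, -0.74 for the G proteins, 0.34 for cyclic AMP and 0.46 for calcium effectors, where that of all genes was 0.15. The receptors and transporter themselves gave a median H3K4me3 change of -0.42 over 7 genes. The deciles of mean score that held the peaks of Ptger2, Ptger3, Ptgdr, Ptgdr2 and Slco2a1 had median changes of -0.29 to -0.21 over all peaks. For the decile of Ptger4 this median was 0.28.

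Ptgdr2 and Slco2a1 were the genes with a SEACR peak in all 3 marks. The genes most like them were found by the Euclidean distance between log2 scores of the strongest peaks over the 12 libraries, among 6431 genes with a peak in each mark. For Ptgdr2 these were Pdzk1 (0.459), Cyp2c66 (0.849) and Wfdc1 (0.859), where the median distance was 3.23. For Slco2a1 they were Wipf3 (0.777), Mcf2l (0.865) and Lmo3 (0.867), where the median was 3.41.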

How the data were processed

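The deposited table lists each peak with a score per library. Per the submitters' processing notes, SEACR and MACS2 were used with build mm10. For the aligner, the peak settings and the scaling of the scores, nothing was given in the sources used here. The deposited signal behaves as coverage per base: score times peak length came in whole multiples of 1 step in at least 99.99% of peaks (within 0.1 of a step, below 1000 steps), which gave the coverage per base quoted as depth. That step count is an estimate, and depth in reads was not otherwise known. Peaks were one set per mark and caller, scored in all 4 libraries. Rows named Control were taken as the vehicle libraries, the only other group of each mark. All row names could be assigned.

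Scores were analysed as log2(score + pseudocount), the pseudocount being percentile 5 of the positive scores of the mark (SEACR: 0.0253 for H3K4me3, 0.0693 for H3K27ac, 0.0329 for H3K27me3; MACS2: 0.164, 0.281 and 0.0957), which understates the change of weak peaks. The test was limma 3.58.1 (R 4.3.3) with trend and robust estimation, 2 against 2 libraries, with Benjamini-Hochberg adjustment over all peaks of a mark and caller, and SEACR peaks were the main set. The fit was tested on simulated data with known changes: each known change was given its right sign, not all of them were called, and for H3K4me3 more unchanged peaks were called than the threshold allows. Starts and promoters are from RefSeq; 9 of the 10 genes matched. The text names, for each gene and mark, the strongest peak, the start peak and every called peak (with Ptger1 excepted), and called genes of the lists. The genes, lists and named-peak rule were chosen with earlier results of these data known. Alternatives were MACS2 peaks, other pseudocounts, the strongest 50% of peaks, centring, quantile normalization, a replicate block, no trend or robust estimation, other gene spans, and leaving out each library. The values of the single Ptger1 peak are not reported here.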

Additional observations from a re-analysis of the deposited data

How the results depend on the processing

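The counts of calls depended on the processing. Over all peaks, the 1710 H3K4me3 calls (904 higher with AA, 806 lower) became 6106 after centring on the library median (5557 higher, 549 lower), 980 higher and 1388 lower after quantile normalization, 0 without trend and robust estimation, and 32 to 8903 when 1 library was left out, the fewest without either vehicle library. The 125 H3K27ac calls (97 higher, 28 lower) became 0 with MACS2 peaks, 0 among the strongest 50% of peaks, 280 with the replicate block, 53 higher and 42 lower after quantile normalization, 0 without trend and robust estimation and 0 to 120 with a library left out. The 574 H3K27me3 calls (524 higher, 50 lower) became 10 with MACS2 peaks, 224 with 4 times the pseudocount, 79 after centring (47 higher, 32 lower), 164 after quantile normalization (84 higher, 80 lower), 0 without trend and robust estimation and 44 to 90 with a library left out. The cause was not tested.

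At the receptor and transporter genes, the 2 H3K4me3 calls, both lower with AA, became 1 with MACS2 peaks (higher, at Ptger4), 1 among the strongest 50% (lower, at Ptgdr), 1 higher and 1 lower after centring (Ptger4 and Ptger2), 0 after quantile normalization, 0 without trend and robust estimation, and 0 to 5 with a library left out (5 without AA replicate 1). The 2 H3K27me3 calls became 1 with 4 times the pseudocount, 0 with MACS2 peaks, centring, quantile normalization or no trend and robust estimation, and 0 whichever library was left out. The H3K27ac count was 0 throughout. The Ptger2 and Ptgdr calls each passed under 6 of 12 alternatives, with changes of -1.62 to -0.99 and -1.65 to -0.84. The Slco2a1 calls passed under 4 (strongest peak) and 3 (longest) of 11, with no MACS2 peak to compare. These 4 called peaks kept their direction in each alternative that gave them a value. Their AA and vehicle libraries do not overlap, so most alternatives, such as leaving out a library or another pseudocount, could not turn it. Only MACS2 peaks, centring and quantile normalization could have done so.

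Changes near 0 that turned sign were those of the strongest Slco2a1 H3K27ac peak (0.34 with MACS2 peaks) and of H3K27me3 at Ptger2 (-0.01 centred, -0.13 after quantile normalization), Ptger3 (-0.11 and -0.22), Ptgir (-0.07 and -0.07) and Ptgfr (-0.04 after quantile normalization). With a library left out, changes ranged from -0.84 to 0.00 for H3K4me3 at the Slco2a1 start, from -0.10 to 0.07 for the strongest Ptgdr2 H3K27ac peak, from -0.29 to 0.09 for that of Slco2a1, and for H3K27me3 from -0.12 to 0.12 at Ptger3 and from -0.33 to 0.40 at Ptgir.

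Libraries of both groups share replicate numbers, but nothing in the labels says that a number marks a shared source, and same-numbered libraries did not deviate together (correlations -0.00228, 0.00853 and 0.00247 for H3K4me3, H3K27ac and H3K27me3). With the number as a block, H3K4me3 calls over all peaks were 2522 and H3K27me3 calls 857, the H3K4me3 calls at the 10 genes were 3 with the Ptger4 start peak added (adjusted p = 0.0481), and the H3K27me3 calls there were 2. With 2 libraries a group and few reads per base, a change at a weak peak could be missed.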
